A study of Mus musculus with 12 samples.

Results

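The immediate early genes described here are Egr1, Egr2, Egr3, Egr4, Fos, Fosb, Junb, Arc, Npas4 and Nr4a1, taken by gene symbol from a table of RNA levels in mouse corpus callosum. All 10 were among the 15584 genes of the table, and all 10 passed the filter on low values that left 13759 genes for testing. The symbols were picked with earlier results of these data known, so the tests below describe these libraries and are not independent support for the choice. The others encode transcription factors, whereas Arc encodes a cytoskeletal protein of synapses and is the exception to the name of the set. The corpus callosum is the large white matter tract between the cerebral hemispheres. It was taken from wild-type mice without treatment (WT control), from wild-type mice given cuprizone (WT cuprizone), from mice labelled AHR CKO without treatment (AHR CKO control) and from AHR CKO mice given cuprizone (AHR CKO cuprizone), with 3 libraries in each of the 4 groups. The series describes AHR CKO as a deficiency of the aryl hydrocarbon receptor, a ligand-activated transcription factor, in microglia. Cuprizone is a copper chelator that kills oligodendrocytes and strips the tract of myelin. The sources used here do not give the Cre driver, the dose and length of treatment, the age or sex of the animals, or whether animals were pooled, and p-values therefore measure the spread between these libraries, which may be technical.

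Immediate early genes are transcribed within minutes of a stimulus without new protein synthesis. Signals from calcium, growth factors or cytokines reach them through MAP kinases, which act on serum response factor and its partners at CArG boxes, and through CREB, which binds cyclic AMP response elements. The products then act on later genes: Fos, Fosb and Junb form the dimer AP-1, the EGR zinc finger proteins bind GC-rich sites, and Nr4a1 is an orphan nuclear receptor. In brain they are best known as markers of recently active neurons, and glia and macrophages also induce several of them. Egr2 is in addition known for its role in myelinating Schwann cells of peripheral nerve and in macrophages.

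The 250 bases before the RefSeq start sites (GRCm38.p6) of 5 members are shown because the results below turn on these genes and because the windows hold CGTCA and, in Egr2, a CArG box. Capitals mark CArG boxes (searched by name, the serum response factor site) and the motif CGTCA, the core of the cyclic AMP response element, on either strand (TGACG where it lies on the other strand). They are Egr2 at chr10:67537619-67537868 on the plus strand (1 of 5 RefSeq starts, the one at the principal GENCODE transcript), Egr4 at chr6:85513590-85513839 on the minus strand, Fos at chr12:85473640-85473889 on the plus strand, Junb at chr8:84978749-84978998 on the minus strand and Nr4a1 at chr15:101266596-101266845 on the plus strand.
Egr2: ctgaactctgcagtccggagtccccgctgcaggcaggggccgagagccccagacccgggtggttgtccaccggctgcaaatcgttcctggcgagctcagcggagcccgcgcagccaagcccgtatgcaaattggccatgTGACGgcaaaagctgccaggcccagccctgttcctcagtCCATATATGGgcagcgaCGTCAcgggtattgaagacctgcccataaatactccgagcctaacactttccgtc
Egr4: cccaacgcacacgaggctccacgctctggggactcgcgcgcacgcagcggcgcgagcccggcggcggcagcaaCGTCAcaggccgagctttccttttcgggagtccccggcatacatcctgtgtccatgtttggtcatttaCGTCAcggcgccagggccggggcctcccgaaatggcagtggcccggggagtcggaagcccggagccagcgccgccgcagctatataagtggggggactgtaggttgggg
Fos: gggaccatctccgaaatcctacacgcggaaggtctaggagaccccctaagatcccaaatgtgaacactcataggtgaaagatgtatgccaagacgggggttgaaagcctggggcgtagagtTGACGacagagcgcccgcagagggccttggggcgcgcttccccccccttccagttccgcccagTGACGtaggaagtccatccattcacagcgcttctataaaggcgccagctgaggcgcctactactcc
Junb: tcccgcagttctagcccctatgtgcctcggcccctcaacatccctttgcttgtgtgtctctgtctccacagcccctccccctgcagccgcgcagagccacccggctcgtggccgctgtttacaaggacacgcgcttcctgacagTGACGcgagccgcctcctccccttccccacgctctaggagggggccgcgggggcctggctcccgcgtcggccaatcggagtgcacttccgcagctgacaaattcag
Nr4a1: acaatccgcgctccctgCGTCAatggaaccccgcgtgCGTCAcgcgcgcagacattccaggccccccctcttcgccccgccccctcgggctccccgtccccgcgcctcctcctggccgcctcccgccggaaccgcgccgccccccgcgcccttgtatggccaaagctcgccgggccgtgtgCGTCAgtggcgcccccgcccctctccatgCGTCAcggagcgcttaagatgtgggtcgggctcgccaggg
Windows were matched for 7 members, these 5 with Fosb and Npas4. The windows of Fosb and Npas4 overlapped a GENCODE exon of their own gene. The RefSeq start of Npas4 lay 345 bases from that of the principal GENCODE transcript. All 7 held CGTCA, as did 17.8% of 32851 RefSeq windows of the same length. The CArG box stood in 1 of the 7, Egr2, from base -72 to -63 before the start site, and in 1.47% of all windows. The EGR motif GCGNGGGCG was found in 2 of the 7 (Fosb and Nr4a1) and in 4.70% of all windows, and the AP-1 motif TGANTCA in 0 of the 7 and 6.75%. No match overlapped another. A match is a description of the letters in this window and says nothing of binding.

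Values are FPKM (fragment counts scaled to transcript length and to library size), which can be compared between genes because of the scaling to length. FPKM summed to between 447156 and 519470 per library, with 447156 to 472073 in the WT libraries and 458842 to 519470 in the AHR CKO libraries. Ahr itself was 1.48 to 2.22 FPKM in the 6 WT libraries and 1.41 to 2.57 in the 6 AHR CKO libraries, so its level in whole tissue does not check the genotype labels. Steps in the lowest values, from 9 to 31 genes per library, gave a rough depth of 11400000 to 14900000 fragments, within a window that by itself limits the answer to between 8330000 and 20000000. This depth was 11400000 to 13000000 in the WT libraries and 12900000 to 14900000 in the AHR CKO libraries. Genes listed at 0 numbered 52 to 80 in each AHR CKO library, 94 in WT cuprizone replicate 2 and 0 in the other WT libraries. Whether these differences bear on the genotype comparisons was not tested. Oligodendrocyte markers were abundant, as the labelled tissue should have them (6 genes summing to 8774 to 15962 FPKM in WT control). Neuron markers were also present in every library (8 genes, 1713 to 2710 FPKM), so the tissue held neuronal RNA. In whole tissue, fewer cells of a type and less RNA per cell cannot be told apart.

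WT control tissue stood apart with low levels of most of these genes. In the plot of FPKM by library its 3 libraries lay below all 3 libraries of AHR CKO control in 9 of the 10 genes, and below all 3 of WT cuprizone in 5. Over all tested genes the AHR CKO control libraries lay above those of WT control in 13.5%, and the WT cuprizone libraries above those of WT control in 15.8%. Both comparisons use the same WT control libraries, so their values are given side by side and not as 2 independent results.

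**Figure D1:**
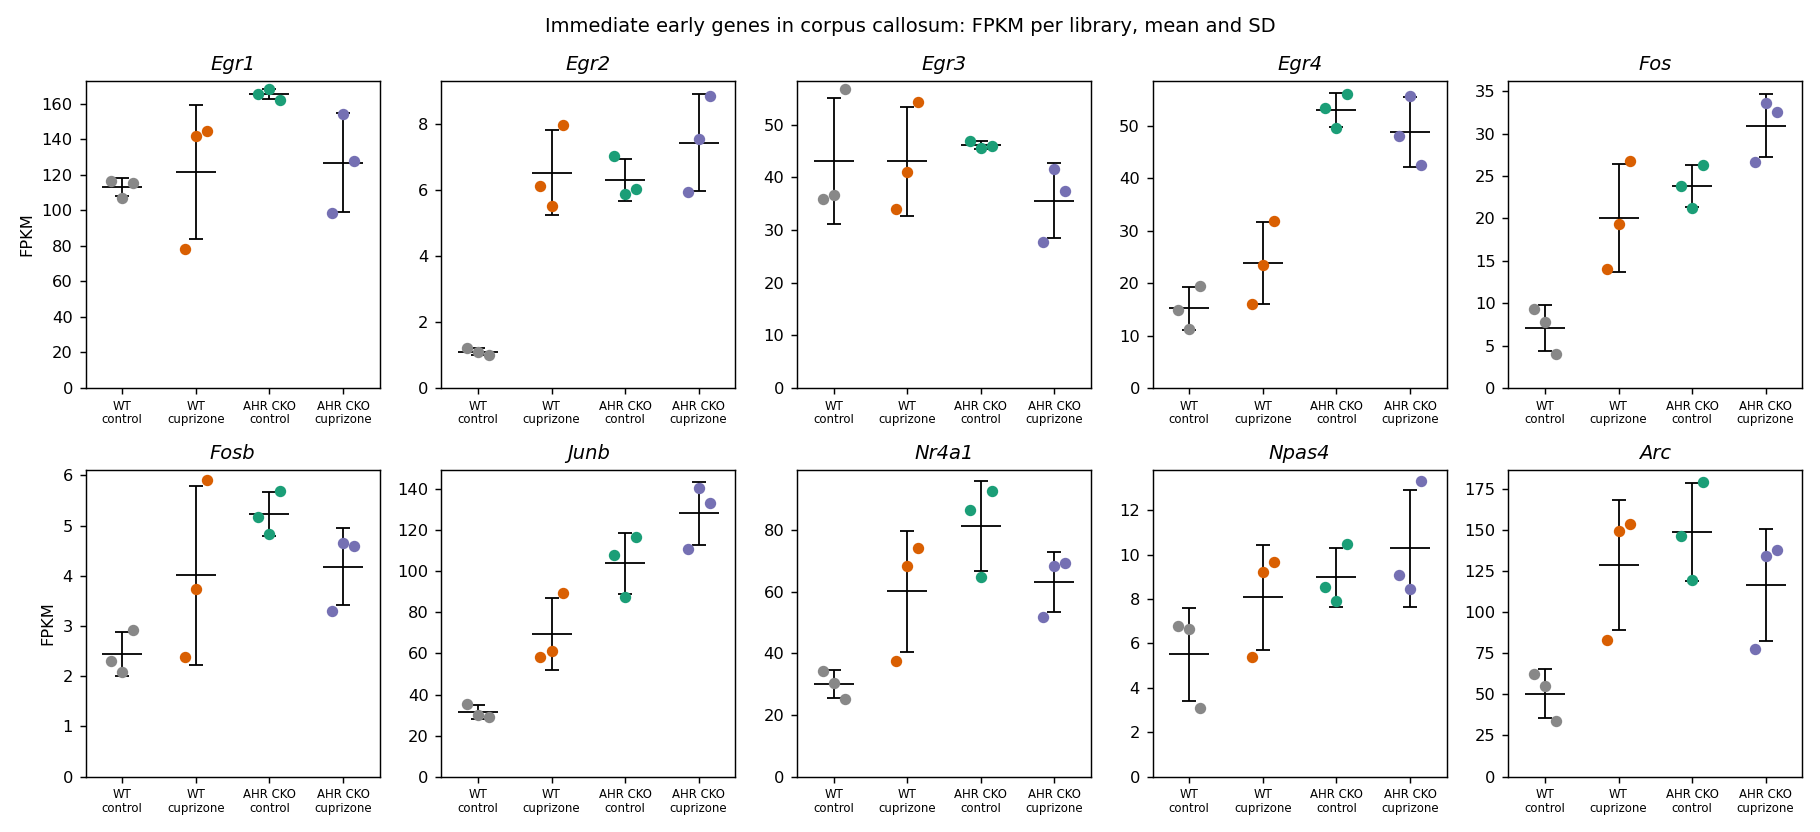
FPKM (y axis, from 0) of the 10 immediate early genes in each library of the 4 groups (x axis). Points are libraries, and the horizontal bar and whiskers are the mean ± SD of 3. Egr2 was near 1 FPKM in the 3 WT control libraries and between 5.52 and 8.86 in the other 9, while Egr3 overlapped between WT control and each of the other groups.

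The EGR family differed among its members. Egr2 (chr10:67535475-67542188, GRCm38) was 1.199, 1.09 and 0.999 FPKM in WT control, 6.11, 5.52 and 7.98 in WT cuprizone, 7.05, 5.89 and 6.02 in AHR CKO control, and 5.93, 7.55 and 8.86 in AHR CKO cuprizone. All 9 libraries outside WT control lay above the 3 within it, and those 9 overlapped among groups. WT control replicate 3 was below 1 FPKM, so Egr2 passed the filter of 1 FPKM in at least 3 libraries through the groups where it was high. The mean was 5.96-fold higher in WT cuprizone (6.54 ± 1.28) than in WT control (1.097 ± 0.1003, SD, n = 3; log2 change 1.83, limma adjusted p = 1e-05). It was 5.76-fold higher in AHR CKO control (6.32 ± 0.636; log2 change 1.80, adjusted p = 0.000565). Log2 changes are on the log2(FPKM + 1) scale throughout and understate those of low genes such as Egr2. Both differences in Egr2 passed the test in every fit that left out 1 of the 12 libraries (largest adjusted p = 8.58e-05 and 0.00771).

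Egr4 (chr6:85511121-85513589) separated the genotypes. It was 14.9, 11.3 and 19.5 FPKM in WT control, 16.1, 23.5 and 31.9 in WT cuprizone, 53.4, 49.6 and 56.2 in AHR CKO control, and 48.02, 55.8 and 42.6 in AHR CKO cuprizone. Every AHR CKO library lay above every WT library, and control and cuprizone overlapped within each genotype. In control tissue the AHR CKO mean was 3.49-fold that of WT (log2 change 1.77, adjusted p = 0.00951) and under cuprizone 2.05-fold (log2 change 1.05, adjusted p = 0.0113). The first of these calls ended without AHR CKO control replicate 3 (adjusted p = 0.0717). The cuprizone change in WT was 0.60 (adjusted p = 0.0864), which passed once WT control replicate 3 (0.0373) or replicate 1 of WT cuprizone (0.0155) was left out.

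Egr1, the most abundant member of the set in WT control, was 116, 107 and 115 FPKM there, 78.002, 142 and 144 in WT cuprizone, 166, 168 and 162 in AHR CKO control, and 98.4, 154 and 128 in AHR CKO cuprizone. The 3 AHR CKO control libraries were the highest of all 12, and replicate 1 was the lowest library in each cuprizone group. AHR CKO control was 1.46-fold above WT control (log2 change 0.55, 95% interval 0.09 to 1.002), which did not pass the test (adjusted p = 0.119) except without WT cuprizone replicate 1 (0.0427) or in a fit of these 2 groups alone (0.0336). The cuprizone change in WT was 0.05 (adjusted p = 0.902). Egr3 (chr14:70077203-70082614) was 35.8, 36.6 and 56.8 FPKM in WT control, 33.9, 40.9 and 54.2 in WT cuprizone, 46.9, 45.5 and 45.9 in AHR CKO control, and 27.6, 41.6 and 37.4 in AHR CKO cuprizone. It passed in no comparison, with an interval of -0.43 to 0.44 for cuprizone in WT and -0.31 to 0.57 for genotype in control tissue. Both intervals lie below the changes of Egr2.

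The AP-1 genes Fos and Junb were low in WT control and higher in the other groups. Fos (chr12:85473890-85477273) was 9.27, 7.82 and 4.02 FPKM in WT control, 14.04, 19.3 and 26.7 in WT cuprizone, 23.8, 21.3 and 26.3 in AHR CKO control, and 26.7, 33.6 and 32.5 in AHR CKO cuprizone. The WT control libraries lay below all others. The mean was 2.85-fold higher with cuprizone in WT (7.04 ± 2.71 to 20.02 ± 6.38, log2 change 1.41, adjusted p = 0.00196) and 3.38-fold higher in AHR CKO control (23.8 ± 2.498, log2 change 1.68, adjusted p = 0.0164). The genotype call ended without WT control replicate 2 (0.0521) or AHR CKO control replicate 2 (0.0576) or 3 (0.0892). Under cuprizone the genotypes overlapped in Fos (log2 change 0.64, adjusted p = 0.0887), a difference that passed without WT control replicate 3 (0.0342).

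Junb (chr8:84974484-84978718), a partner of Fos in AP-1, was 35.6, 30.1 and 28.96 FPKM in WT control, 58.2, 60.96 and 89.7 in WT cuprizone, 107.8, 87.6 and 117 in AHR CKO control, and 110.9, 140.5 and 133 in AHR CKO cuprizone. WT control and WT cuprizone did not overlap, and under cuprizone every AHR CKO library lay above every WT library. Junb rose 2.21-fold with cuprizone in WT (log2 change 1.10, adjusted p = 0.000575). AHR CKO was 3.30-fold above WT in control tissue (log2 change 1.69, adjusted p = 0.0019) and 1.84-fold above it under cuprizone (log2 change 0.89, adjusted p = 0.00749). These 3 calls passed without any 1 library (largest adjusted p = 0.00362, 0.023 and 0.0301). Fosb (chr7:19302696-19310051), which is the near relative of Fos, was lower: 2.31, 2.09 and 2.92 FPKM in WT control, 2.38, 3.74 and 5.92 in WT cuprizone, 5.17, 4.83 and 5.69 in AHR CKO control, and 3.296, 4.65 and 4.6001 in AHR CKO cuprizone. AHR CKO control was 2.15-fold above WT control (log2 change 0.86, adjusted p = 0.0421). That call ended on leaving out replicate 1 (0.123) or 2 (0.128) of WT control, 1 (0.0651), 2 (0.103) or 3 (0.150) of AHR CKO control, or 2 (0.0593) of AHR CKO cuprizone, and with no filter on low values (0.0518). Its cuprizone change in WT was 0.49 (adjusted p = 0.150) and passed without WT cuprizone replicate 1 (0.0221).

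Nr4a1 (chr15:101254269-101274795) was 34.3, 30.4 and 25.3 FPKM in WT control, 37.7, 68.4 and 74.3 in WT cuprizone, 86.6, 64.7 and 92.7 in AHR CKO control, and 51.9, 68.3 and 69.2 in AHR CKO cuprizone. WT control lay below all other libraries, with WT cuprizone replicate 1 only a little above it. It rose 2.01-fold with cuprizone in WT (log2 change 0.93, adjusted p = 0.0147), a call lost on leaving out replicate 3 of WT control (0.0568) or of WT cuprizone (0.0673). AHR CKO control was 2.71-fold above WT control (log2 change 1.40, adjusted p = 0.0221), which ended without WT control replicate 1 (0.0698) or 2 (0.0816) or AHR CKO control replicate 2 (0.0513) or 3 (0.0962). Of its family, Nr4a2 stood at 17.5 ± 6.27 FPKM in WT control and passed in no comparison. Nr4a3 rose with cuprizone in WT (4.90 ± 0.254 to 11.7 ± 4.44, adjusted p = 0.0104) and was lower in AHR CKO than in WT under cuprizone (4.73 ± 1.066, adjusted p = 0.0127).

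Arc (chr15:74669083-74672570), whose product takes part in the trafficking of glutamate receptors at synapses, was 62.6, 54.8 and 33.6 FPKM in WT control, 82.9, 149 and 154 in WT cuprizone, 146, 119.6 and 179 in AHR CKO control, and 77.5, 134 and 138 in AHR CKO cuprizone. WT control again lay below the other 9 libraries, and replicate 1 was the lowest of each cuprizone group. Arc rose 2.55-fold with cuprizone in WT (log2 change 1.33, adjusted p = 0.00805), in every fit without 1 library (largest adjusted p = 0.0395). AHR CKO control was 2.95-fold above WT control (log2 change 1.57, adjusted p = 0.0272). This genotype call ended without WT control replicate 1 (0.0787) or 2 (0.0938), or AHR CKO control replicate 2 (0.0741) or 3 (0.117). Npas4 (chr19:4984355-4990316), a neuronal transcription factor induced by calcium entry, was 6.78, 6.65 and 3.07 FPKM in WT control, 5.37, 9.22 and 9.67 in WT cuprizone, 8.53, 7.91 and 10.5 in AHR CKO control, and 9.09, 8.45 and 13.3 in AHR CKO cuprizone. Its libraries did not overlap between WT control and AHR CKO control, but no comparison passed. The log2 change was 0.51 with cuprizone in WT (adjusted p = 0.230) and 0.67 for genotype in control tissue (adjusted p = 0.131).

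Counted together, 5 of the 10 genes rose with cuprizone in WT and 0 fell (Egr2, Fos, Junb, Arc and Nr4a1), where 9.08% of all tested genes rose and 7.81% fell. The median log2 change of the 10 was 0.77, against -0.04 over all genes. In control tissue 7 of the 10 were higher in AHR CKO and 0 lower (these 5 with Egr4 and Fosb), where 1.42% of all genes were higher and 4.76% lower. The median was 1.49, against -0.03 over all genes. Egr2 passed the filter on low values through the groups where it was high, so its place in both counts is no support. The 7 became 4 without WT control replicate 1, 3 without WT control replicate 2, 3 without AHR CKO control replicate 2 and 2 without AHR CKO control replicate 3. The same omissions brought the calls over all genes from 851 to between 4 and 12.

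In AHR CKO mice 0 of the 10 genes passed the limma test for cuprizone, where 7.22% of all genes rose and 2.98% fell. The number with an unadjusted p under 0.05 was also 0, against 24.1% of all genes. The largest log2 changes were -0.40 for Egr1 (interval -0.86 to 0.05, adjusted p = 0.267) and -0.39 for Egr3 (interval -0.82 to 0.05, adjusted p = 0.272). For Egr2 the interval of -0.13 to 0.52 lay below the change of 1.83 seen in WT. Egr1, Egr3 and Fosb lay lower in all 3 cuprizone libraries than in the 3 controls, a pattern held by 14.6% of all genes, and Fos lay higher in all 3 (14.3%). Under cuprizone, 2 of the 10 genes, Egr4 and Junb, were higher in AHR CKO than in WT and 0 were lower, where 9.14% of all genes were higher and 10.8% lower. Their libraries did not overlap between genotypes, with AHR CKO above WT, as in 18.9% of all genes. The other 8 spanned log2 changes of -0.26 for Egr3 to 0.64 for Fos.

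**Figure D2:**
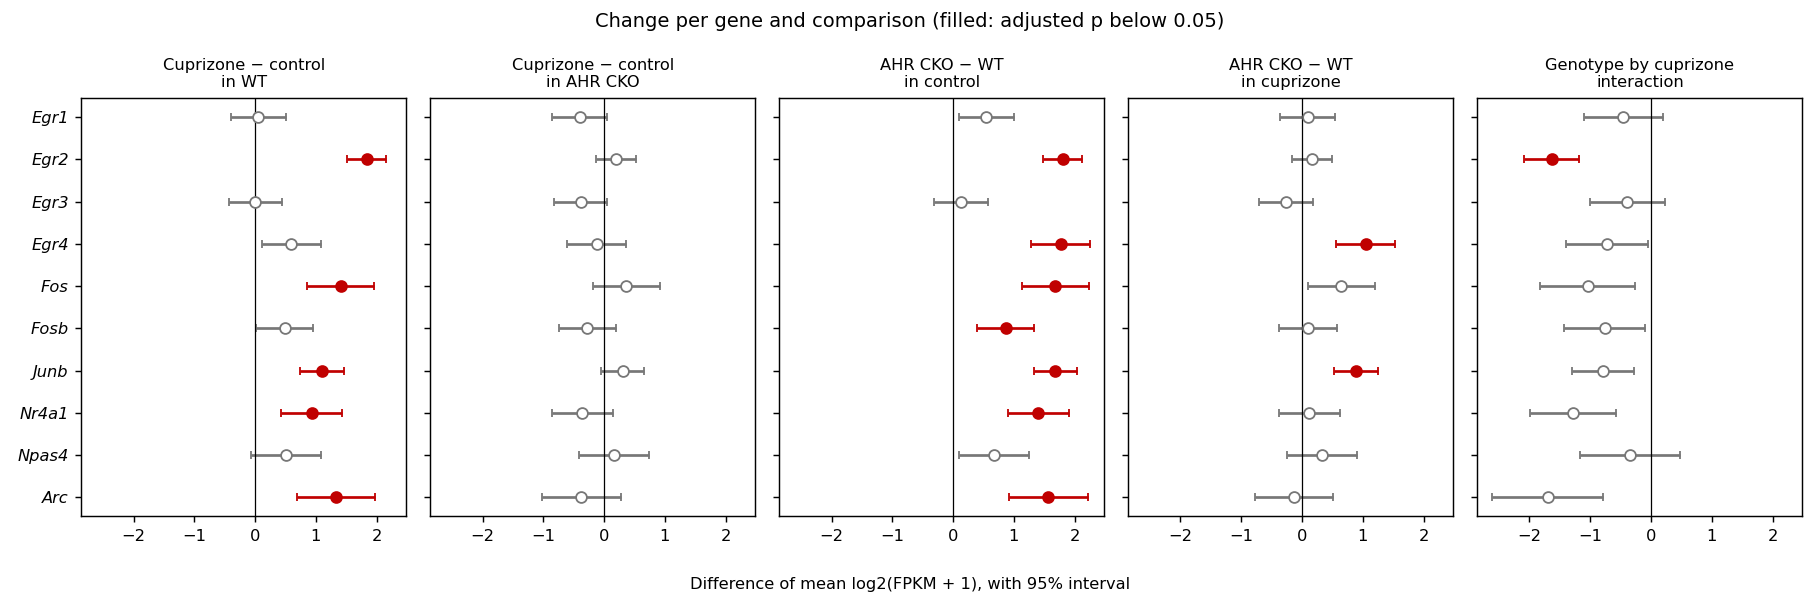
Difference of mean log2(FPKM + 1) (x axis) for each gene (y axis) in the 5 comparisons, 1 panel each. Points are limma estimates with 95% intervals, filled where the adjusted p was below 0.05. The filled points number 5, 0, 7, 2 and 1 from left to right, and all 10 interaction estimates lie below 0.

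The test of the genotype by cuprizone interaction asked whether cuprizone acted differently in the 2 genotypes. Egr2 passed it (log2 difference of -1.64, interval -2.10 to -1.18, adjusted p = 0.0329), 1 of 5 genes called among all tested (0.0145% with a positive difference and 0.0218% with a negative one). The call ended with no filter on low values (0.0565), and on leaving out replicate 1 (0.105) or 2 (0.0899) of WT control, 1 (0.0924) of WT cuprizone, 1 (0.0843), 2 (0.109) or 3 (0.119) of AHR CKO control, or 1 (0.0697) or 2 (0.123) of AHR CKO cuprizone, while the estimate stayed between -1.76 and -1.50. The estimates of Arc (-1.70, adjusted p = 0.222) and Nr4a1 (-1.29, adjusted p = 0.240) were next in size and did not pass. All 10 estimates were negative, from -1.70 for Arc to -0.34 for Npas4, with a median of -0.78 against 0.03 over all genes, and 7 of them had an unadjusted p under 0.05, as did 9.56% of all genes.

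The order of levels changed between groups. In WT control the genes ran from Egr1 (113 ± 5.18 FPKM) through Arc (50.4 ± 15.03), Egr3 (43.06 ± 11.9), Junb (31.6 ± 3.54), Nr4a1 (29.98 ± 4.51), Egr4 (15.2 ± 4.13), Fos (7.04 ± 2.71), Npas4 (5.502 ± 2.11) and Fosb (2.44 ± 0.434) to Egr2 (1.097 ± 0.1003). Neighbours whose libraries overlapped were Arc and Egr3, Junb and Nr4a1, and Fos and Npas4. In WT cuprizone the 5 highest, Arc (129 ± 39.5), Egr1 (121 ± 37.6), Junb (69.6 ± 17.4), Nr4a1 (60.1 ± 19.7) and Egr3 (43.04 ± 10.3), each overlapped the next. In AHR CKO control Egr1 (165 ± 2.89) and Arc (148 ± 29.8) overlapped, as did Junb (104 ± 14.8) and Nr4a1 (81.3 ± 14.7), and every other neighbouring pair was apart. In AHR CKO cuprizone Junb (128 ± 15.5) stood first with Egr1 (127 ± 27.8) and Arc (116 ± 33.8), and these 3 overlapped. Egr3 went from the third place in WT control to the sixth in both AHR CKO groups, behind Egr4. Egr4 and Egr3 stood at 53.1 ± 3.27 and 46.1 ± 0.728 in AHR CKO control. In AHR CKO cuprizone they stood at 48.8 ± 6.64 and 35.6 ± 7.18. Fosb (4.18 ± 0.769) was last below Egr2 (7.45 ± 1.47) in AHR CKO cuprizone. It was also last below Egr2 in AHR CKO control and, with overlap, in WT cuprizone.

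Within groups, many of the genes were high or low in the same libraries. WT cuprizone replicate 1 lay below its group mean in all 10 genes and WT cuprizone replicate 3 above it in all 10. AHR CKO cuprizone replicate 1 also lay below its group mean in all 10. The deviations of a gene from its group means correlated with the mean standardised deviation of the other 9 at r = 0.91 for Nr4a1, 0.86 for Junb and Fosb, and down to 0.52 for Egr3 (12 libraries of 4 groups). Without those 2 WT cuprizone libraries r was 0.83 for Nr4a1, 0.80 for Junb, 0.12 for Egr3 and -0.10 for Egr4, so for Egr3 and Egr4 the relation rested on them. Among 12927 other genes, the deviations most like the mean of the 10 were those of Smim13 (r = 0.92), Zfp575 (0.91), Ptprcap (0.89), Arhgap15 (0.88) and Hsd17b7 (0.88), with Spearman's rho of 0.82, 0.89, 0.76, 0.78 and 0.79. Without those 2 libraries r was 0.77, 0.91, 0.64, 0.75 and 0.80. These are the top of a long ranking over 12 libraries that share their groups, and they carry no test.

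**Figure D3:**
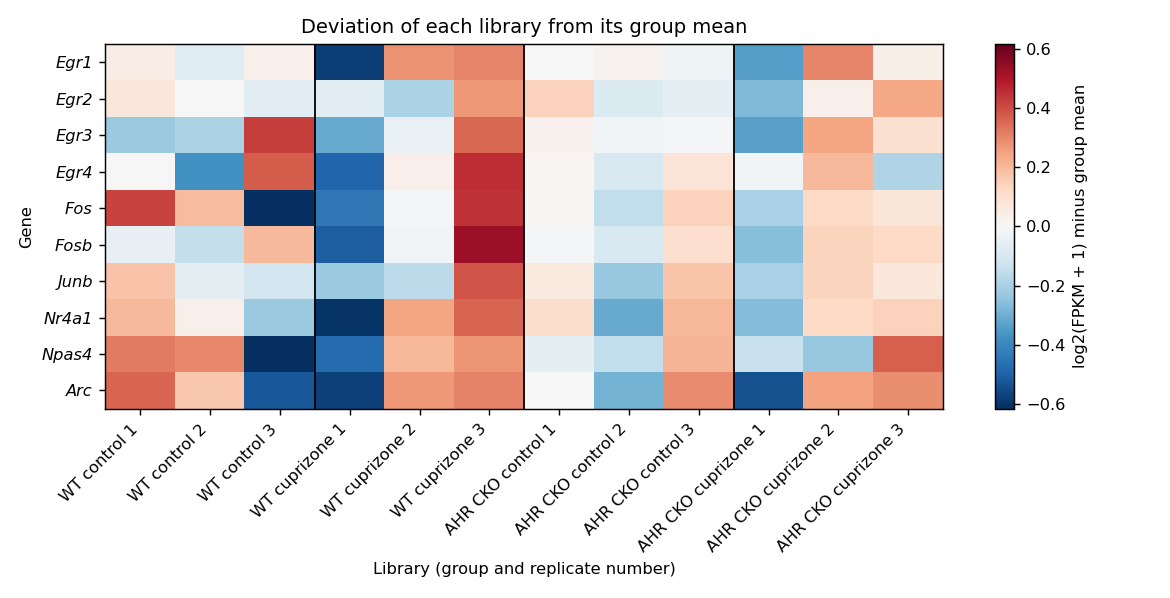
Deviation of each library (x axis) from its group mean in log2(FPKM + 1) (colour) for the 10 genes (y axis). Vertical lines part the 4 groups, red is above and blue below the group mean. WT cuprizone replicate 1 is blue in every gene and WT cuprizone replicate 3 red in every gene, while in WT control replicate 3 Egr3, Egr4 and Fosb are above the mean and Fos, Arc and Npas4 below.

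Other genes of the same pathway were read from lists chosen by function. Of 9 other AP-1 and related genes tested, 4 rose and 0 fell with cuprizone in WT (9.08% and 7.81% of all genes). In AHR CKO 4 rose and 0 fell (7.22% and 2.98%). In control tissue AHR CKO had 1 higher and 0 lower (1.42% and 4.76%), and under cuprizone 3 higher and 0 lower (9.14% and 10.8%). Atf3, a stress-induced partner of the Jun proteins, rose in both genotypes, from 0.627 ± 0.119 to 7.55 ± 0.726 FPKM in WT (adjusted p = 5.2e-06) and from 0.893 ± 0.163 to 12.1 ± 3.65 in AHR CKO (adjusted p = 5.5e-06). Maff, a small Maf protein, did so as well (log2 changes 1.34 and 1.72, adjusted p = 0.000942 and 0.000275). Atf3 and Maff were below 1 FPKM in every WT control library and passed the filter through the cuprizone libraries where they were high, so they were tested because they differ and the count of 4 is no support. Fosl2, which encodes Fra-2, was the 1 gene higher in AHR CKO control (4.07 ± 0.341 against 8.37 ± 0.564 FPKM, adjusted p = 0.0231), and it rose with cuprizone in WT to 7.86 ± 1.29 (adjusted p = 0.00356). Jun stayed between means of 25.9 and 32.7 FPKM and passed in no comparison.

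Of 30 other immediate early and activity-induced genes, 8 rose and 0 fell with cuprizone in WT (median log2 change 0.31). Over all genes 9.08% rose and 7.81% fell. In AHR CKO 6 rose and 0 fell (median -0.03), against 7.22% and 2.98% of all genes. In control tissue 6 were higher and 1 lower with AHR CKO (median 0.42), against 1.42% and 4.76%. Myc, a growth-promoting transcription factor, rose in WT from 2.41 ± 0.176 to 5.86 ± 0.837 FPKM (adjusted p = 5.93e-05) and in AHR CKO from 2.42 ± 0.220 to 7.52 ± 0.491 (adjusted p = 1.81e-05). Zfp36, which destabilises cytokine mRNAs, rose in both as well (log2 changes 0.97 and 1.38, adjusted p = 0.00376 and 0.000566). Cyr61, a matrix protein of the CCN family, reached 23.5 ± 8.18 FPKM in AHR CKO cuprizone, against 8.56 ± 2.69 in WT cuprizone (adjusted p = 0.00717). Btg2, an antiproliferative gene, rose with cuprizone in WT (5.09 ± 1.31 to 12.2 ± 3.08, adjusted p = 0.00132) and was higher in AHR CKO control (9.31 ± 1.59, adjusted p = 0.0402). Under cuprizone 8 of the 30 were higher and 3 lower in AHR CKO than in WT, against 9.14% and 10.8% of all genes, so the share of lower genes is near that of all genes.

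The feedback regulators held MAP kinase phosphatases, which switch the pathway off, and the EGR corepressors Nab1 and Nab2. Of 13 tested, 4 rose and 1 fell with cuprizone in WT, where 9.08% of all genes rose and 7.81% fell. In AHR CKO 1 rose and 1 fell (7.22% and 2.98% of all genes). In control tissue AHR CKO had 4 higher and 0 lower (1.42% and 4.76%), and under cuprizone 1 higher and 4 lower (9.14% and 10.8%). The share that fell in WT is near that of all genes. Dusp6, the phosphatase of ERK, rose in WT from 17.7 ± 2.35 to 31.97 ± 1.65 FPKM (adjusted p = 0.00126) and stood at 27.1 ± 1.09 in AHR CKO control (adjusted p = 0.0373 against WT control). Dusp5, a nuclear phosphatase of ERK, was 3.44 ± 0.677 FPKM in WT control, 5.86 ± 1.35 in WT cuprizone (adjusted p = 0.0158) and 9.07 ± 1.49 in AHR CKO control (adjusted p = 0.012). Spred2, an inhibitor of the Ras pathway, was lower in AHR CKO than in WT under cuprizone (16.1 ± 2.53 against 28.3 ± 2.55, adjusted p = 0.00605), as was the related Spred1 (31.1 ± 4.58 against 44.3 ± 3.22, adjusted p = 0.0161). Nab2 was 14.5 ± 2.25 FPKM in WT control, 19.9 ± 0.824 in WT cuprizone (adjusted p = 0.018) and 20.6 ± 1.53 in AHR CKO control (adjusted p = 0.0366).

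Of 25 upstream factors and kinases, 2 rose and 1 fell with cuprizone in WT, and in control tissue AHR CKO had 0 higher and 1 lower. Over all genes the shares were 9.08% and 7.81%, and 1.42% and 4.76%, near those of the list. Under cuprizone 1 was higher and 9 lower in AHR CKO than in WT, where 9.14% of all genes were higher and 10.8% lower. Elk3, an ETS partner of serum response factor, rose with cuprizone in WT (2.44 ± 0.173 to 6.39 ± 1.45 FPKM, adjusted p = 0.000961). Creb1, which encodes CREB, was lower in AHR CKO in control tissue (6.89 ± 0.730 against 10.8 ± 0.803, adjusted p = 0.0301) and under cuprizone (6.04 ± 0.819 against 9.65 ± 1.05, adjusted p = 0.00875). Elk4, another ETS partner, and Mef2d, a calcium-regulated factor, were lower in AHR CKO under cuprizone (log2 changes -0.81 and -0.75, adjusted p = 0.00972 and 0.0134). Srf itself, at means of 14.1 to 16.8 FPKM, passed in no comparison.

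**Figure D4:**
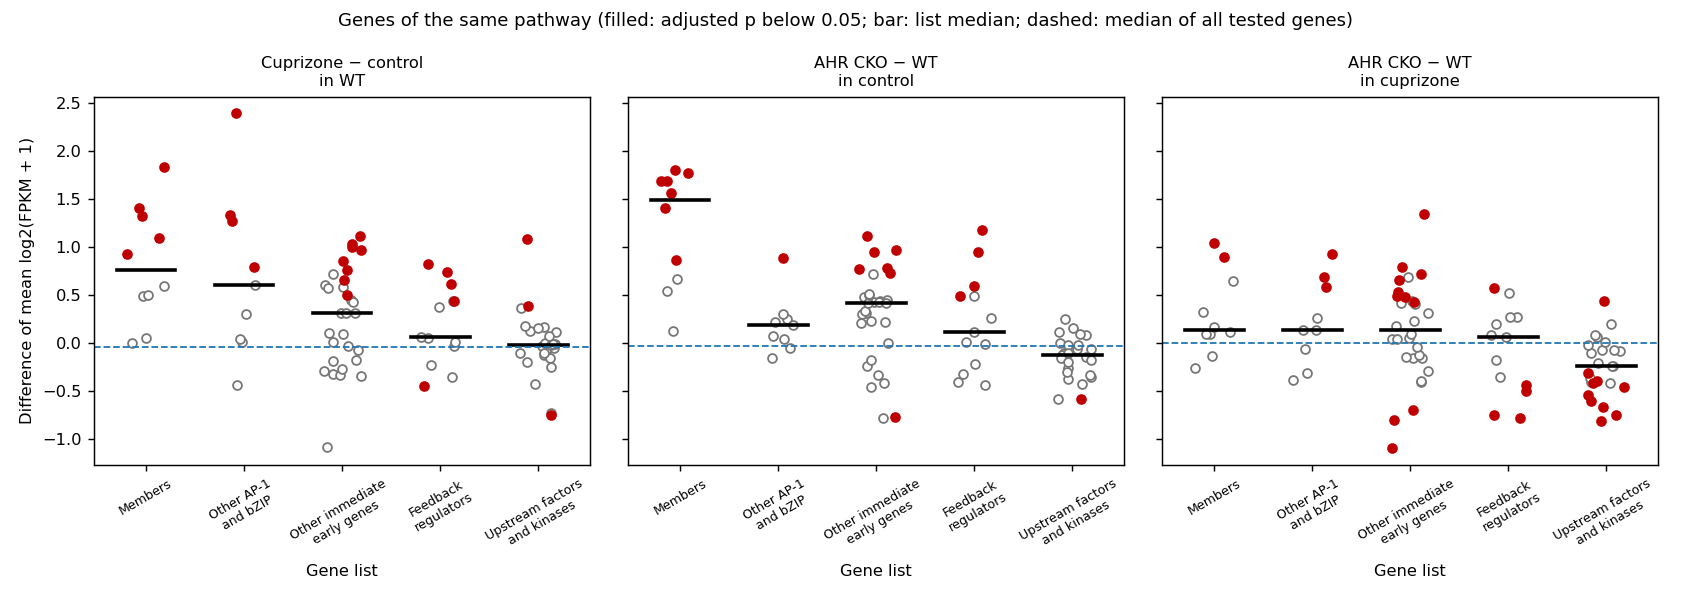
Difference of mean log2(FPKM + 1) (y axis) for the 10 genes and for 4 lists of the same pathway (x axis), in 3 comparisons. Filled points had an adjusted p below 0.05, the bars are list medians and the dashed line is the median of all tested genes. In control tissue the median of the 10 genes was 1.49 and those of the 4 lists ran from -0.12 to 0.42.

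Markers of cell types were measured beside these genes, and their part in the results was not tested. For the counts below, 9.08% of all tested genes rose and 7.81% fell with cuprizone in WT, and 7.22% and 2.98% in AHR CKO. In control tissue 1.42% were higher and 4.76% lower with AHR CKO, and under cuprizone 9.14% and 10.8%. The 8 general neuron markers passed in no comparison, and their summed level was 2274 to 2620 FPKM in WT control, 1713 to 2309 in WT cuprizone, 2069 to 2710 in AHR CKO control and 1941 to 2281 in AHR CKO cuprizone. WT cuprizone replicate 1, lowest of its group in 9 of the 10 genes, also had the lowest neuron sum of the 12 libraries (1713). AHR CKO cuprizone replicate 1, lowest in 8, had the lowest neuron sum of its group (1941). AHR CKO control replicate 2, also lowest in 9, had the middle sum of its group (2298). AHR CKO control replicate 1, lowest in 0, had the lowest sum there (2069). WT cuprizone replicate 3, highest of its group in all 10, stood at 2212, below replicate 2 (2309). Of 9 markers of cortical excitatory neurons, 3 were lower in AHR CKO than in WT under cuprizone, where their sums were 710.3 to 1107 and 1160.02 to 1365 FPKM. Microglia markers (7 genes) summed to 253 to 274 FPKM in WT control, 779 to 1166 in WT cuprizone, 223 to 229 in AHR CKO control and 519 to 871 in AHR CKO cuprizone. With cuprizone 4 of the 7 rose in each genotype, and under cuprizone 2 were lower in AHR CKO than in WT. Cx3cr1, 1 of the 7, was 22.6 to 24.9 FPKM in WT control and 49.4 to 69.4 in WT cuprizone. It was 1.05, 9.60 and 0.801 in AHR CKO control, and 1.16, 22.7 and 29.6 in AHR CKO cuprizone. Astrocyte markers (5 genes) rose with cuprizone in 4 of 5 genes in each genotype, from sums of 452 to 587 FPKM in WT control to 1472 to 1938 in WT cuprizone. Oligodendrocyte markers fell in 6 of 6 in each genotype, to sums of 2674 to 3159 FPKM in WT cuprizone. All 6 had a positive interaction estimate, and 1 passed, where 0.0145% of all genes passed with a positive difference. Choroid plexus markers (7 genes) summed to 207 to 367 FPKM in WT control, 102 to 3261 in WT cuprizone, 515 to 3994 in AHR CKO control and 1102 to 3928 in AHR CKO cuprizone, so that WT control lay below both AHR CKO groups. Within WT cuprizone they summed to 3261, 102 and 1107 FPKM in replicates 1, 2 and 3. The 10 genes summed to 335, 523 and 598 there. In WT control the marker sums were 207, 367 and 223, against 319, 288 and 291 for the 10 genes. In AHR CKO control they were 2150, 3994 and 515, against 651, 575 and 701. In AHR CKO cuprizone they were 3928, 1102 and 3030, against 459, 648 and 608. In each group the library highest in choroid plexus markers had the lowest sum of the 10 genes. Fibroblast markers (6 genes) summed to 7.41 to 8.85, 7.72 to 17.7, 13.996 to 25.5 and 12.2 to 23.3 FPKM in the 4 groups, and in control tissue 2 of the 5 tested were higher with AHR CKO. Of 6 heat shock genes, 4 rose with cuprizone in WT, and 5 were lower in AHR CKO than in WT under cuprizone. With cuprizone in AHR CKO 0 of them rose and 1 fell. All 6 had a negative interaction estimate (median -0.96, against 0.03 over all genes). The interaction passed in 1 of the 6, where 0.0218% of all genes passed with a negative difference. Blood markers (3 genes) parted the genotypes, with 52.8 to 230.4 FPKM in the 6 WT libraries and 0.830 to 28.7 in the 6 AHR CKO libraries. Since blood content differed with genotype in every library, genotype and differences in how the tissue was taken cannot be told apart in the genotype comparisons. Striatal markers (8 genes) summed to 647, 1001 and 2738 FPKM in replicates 1, 2 and 3 of WT control, and 589, 451 and 900 in WT cuprizone. The sums were 2041, 1797 and 1288 in AHR CKO control and 1656, 1636 and 836 in AHR CKO cuprizone. None of the 8 passed in any comparison, but all 8 were lower with cuprizone in each genotype. Under cuprizone all 8 were higher in AHR CKO than in WT (median log2 change 0.88), and in control tissue 7 were. Among the marker lists, Alas2 of blood and Ly6c2 of infiltrating myeloid cells were listed at 0 in at least 1 library.

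**Figure D5:**
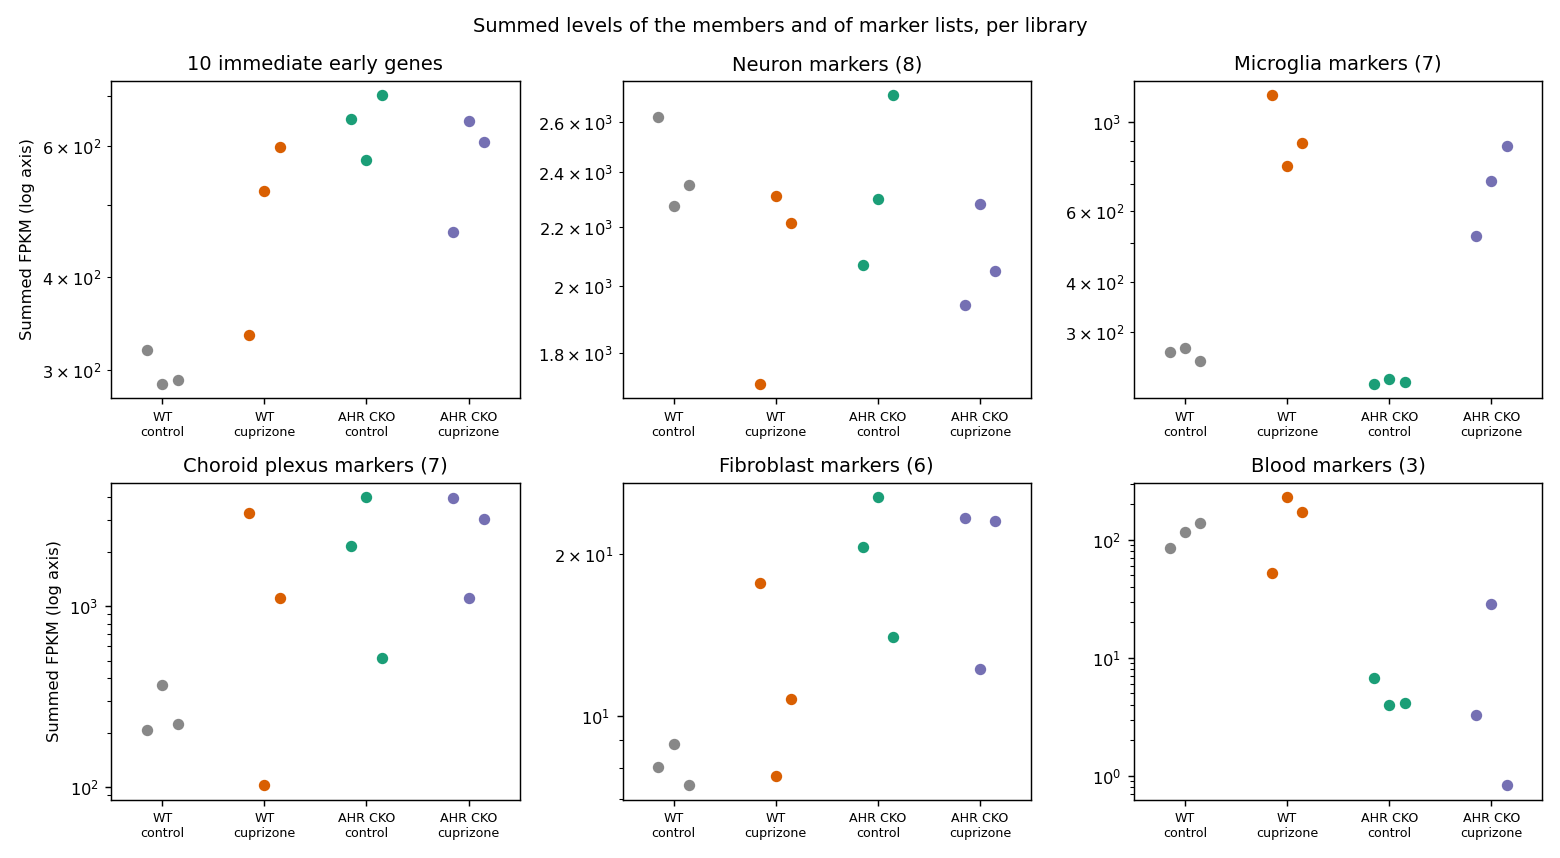
Summed FPKM (y axis, log scale) of the 10 genes and of 5 marker lists in each library of the 4 groups (x axis). Each point is 1 library, and the number of genes summed stands in brackets. The sum of the 10 genes was 288 to 319 in WT control and 335 to 701 in the other libraries. Blood markers were lower in every AHR CKO library than in every WT library.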

How the data were processed

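RNA of corpus callosum was sequenced in 12 libraries, 4 groups of 3. The authors deposited 1 table of FPKM per gene symbol, with 15584 genes. The submitters' processing notes name GRCm38 (mm10) as the genome build. The sources used here do not name the aligner, the counting program, the annotation or the use of strand, so reads of overlapping antisense genes could not be told apart. Symbols in date form (25) were left as they stand.

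Genes at 1 FPKM or more in at least 3 libraries were tested (13759). The values were taken as log2(FPKM + 1) and fitted with limma 3.58.1 in R 4.3.3, with 1 mean per group and a trended prior variance. The 5 comparisons were drawn from this fit, and p-values were adjusted by Benjamini-Hochberg over all tested genes within each (threshold 0.05). The fit was tested on simulated data. FPKM are not counts, so no count test was run. With 3 libraries against 3, an exact permutation test cannot go below 0.1.

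The members and lists were chosen with earlier results of these data known, as was the window for reading depth steps. The rule named all 10 members, up to 4 genes of each pathway list by smallest adjusted p, and the 5 genes most alike in their deviations. Jun, Srf, Nab2, Nr4a2 and Nr4a3 were added after their values were seen. A gene that the rule names is not reported here. Marker lists are given as sums. Over all tested genes, same-numbered libraries did not deviate together, so the replicate number is not used as a block. In the 10 members, however, replicate 1 lay below its group mean in all 10 in both cuprizone groups. Gene positions are from GENCODE (GRCm38) and promoters from RefSeq (GRCm38.p6). The alternatives were other pseudocounts, filters, scalings and prior variances, a replicate block, fits of 2 groups, and leaving out each library.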

Additional observations from a re-analysis of the deposited data

Results flagged for a closer look

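Egr2 differed between the genotypes in its change with cuprizone, by the test of the difference itself. The log2 difference (change in AHR CKO minus change in WT) was -1.64 (limma adjusted p = 0.0329). Egr2 went from 1.097 ± 0.1003 to 6.54 ± 1.28 FPKM in WT and from 6.32 ± 0.636 to 7.45 ± 1.47 in AHR CKO (SD, n = 3). The WT control libraries are the low ones, and the other 3 groups overlap. Egr2 passed the filter on low values through the groups where it was high, and with no filter the limma adjusted p was 0.0565. Over the alternatives the adjusted p ranged from 0.0135 without WT cuprizone replicate 2 to 0.123 without AHR CKO cuprizone replicate 2.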

How the results depend on the processing

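Of 990 recomputed changes of the 10 genes, 936 kept their direction and their side of the threshold, 33 lost a call, 6 gained one and 15 took the other direction. Leaving out 1 library gave 4 to 7 called genes for cuprizone in WT, 0 to 0 for cuprizone in AHR CKO, 2 to 8 for genotype in control tissue, 2 to 3 for genotype under cuprizone and 0 to 1 for the interaction. The interaction count was 0 with no filter on low values and 0 with the replicate block. For genotype in control tissue the block gave 5 of the 10 genes and 51 genes of all tested, and a fit of the 2 groups alone gave 8 and 127, against 7 and 851. Arc and Fosb lost their calls under the block (adjusted p = 0.0540 and 0.0601). Of 18 pairs of same-numbered libraries, 3 had a correlation of deviations over all tested genes above 0.1 (range -0.34 to 0.25). Among the 10 genes, replicate 1 lay below its group mean in all 10 in both cuprizone groups, and in 3 in each control group. Whether the losses under the block are weaker effects is therefore not settled. For genotype under cuprizone, rescaling to a common total (TPM) turned Egr1 to -0.038 and Nr4a1 to -0.012 but moved the median of all genes by -0.12, and relative to that median the values were 0.08 and 0.11. Quantile normalization turned Egr1 to -0.059. Without 1 library the sign also turned for changes near 0: Egr1 (-0.10 to 0.34) and Egr3 (-0.17 to 0.22) for cuprizone in WT, Npas4 (-0.022 to 0.28) for cuprizone in AHR CKO, and Egr1 (-0.20 to 0.26), Fosb (-0.16 to 0.36), Nr4a1 (-0.19 to 0.30) and Arc (-0.42 to 0.13) for genotype under cuprizone. The cause was not tested.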
